A study of Canis lupus familiaris with 34 samples.

Results

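Osteocytes are the cells that osteoblasts become once they are buried in mineralised bone, and DMP1 and SOST are their best known genes. This report sets the 9 primary dog osteosarcomas with the highest DMP1 and SOST levels against the 9 with the lowest, 18 of 28 tumours in all. For each tumour the score was the mean of log2(FPKM + 1) of the pair of genes, where FPKM is the number of fragments scaled to transcript length and library size. The tumours were chosen by this score, and so by the measured levels of DMP1 and SOST. The 10 tumours between the sets did not enter the main comparison, but entered some of the alternative fits given below. Osteosarcoma is a malignant tumour of bone-forming cells, and each tumour here is a piece of bulk bone tumour tissue from a dog labelled Golden Retriever, although the design text also names Rottweilers. The labels name no treatment, and the tumour tissue may hold other cells beside tumour cells. The series holds 34 RNA sequencing libraries, of which 30 are primary tumours, 1 is a metastasis (DOS.6M), 1 is an osteoblast culture (CNOB) and 2 are lines grown from osteosarcomas (OSCA.8, OSCA.78). Libraries DOS.46.2 and DOS.46, whose titles differ only in a suffix, were averaged as 1 tumour. DOS.32 and DOS.100 were averaged too, since the profiles of this pair, each taken as a deviation from the tumours' average, had r = 0.84 across genes, above the 0.73 of DOS.46.2 and DOS.46.

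Osteocytes lie in a network of fine channels and steer bone turnover and phosphate. DMP1, dentin matrix protein 1, is an acidic phosphoprotein that binds calcium and takes part in mineralisation. SOST encodes sclerostin, a secreted protein that binds the WNT co-receptors LRP5 and LRP6 and so restrains bone formation. In humans and mice, loss of DMP1 or of the membrane peptidase PHEX raises the phosphate hormone FGF23 and leads to poorly mineralised bone.

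The sets reach across a wide range of both genes. In the 9 highest tumours DMP1 ran from 12.1 FPKM (DOS.111) to 362 FPKM (DOS.46), and in the 9 lowest from 0.306 FPKM (DOS.90) to 12.9 FPKM (DOS.37). SOST ran from 8.76 FPKM (DOS.28) to 429 FPKM (DOS.81) in the 9 highest and from 0.0373 FPKM (DOS.11) to 6.84 FPKM (DOS.115) in the 9 lowest. These values chose the tumours and were not tested. The score of the last tumour inside the highest set was 5.52 (DOS.110), next to 5.4 in DOS.76 outside it. The first tumour inside the lowest set had 2.29 (DOS.37), next to 2.59 in DOS.105 outside it. Neither border of the score is marked by a wide gap.

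DMP1 and SOST ran only loosely together. Over the 28 tumours their log2 levels correlated at Pearson r = 0.49 and Spearman rho = 0.54, given as a description over tumours of 1 table. The 9 highest tumours of each gene alone had 5 tumours in common, and the 9 lowest had 7. DOS.76 had the highest DMP1 of all, 762 FPKM, with 1.33 FPKM of SOST, and therefore stayed between the sets. DOS.111 showed the opposite pattern, with 12.1 FPKM of DMP1 and 306 FPKM of SOST. DOS.81 alone was among the 4 highest tumours for both genes.

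**Figure D1:**
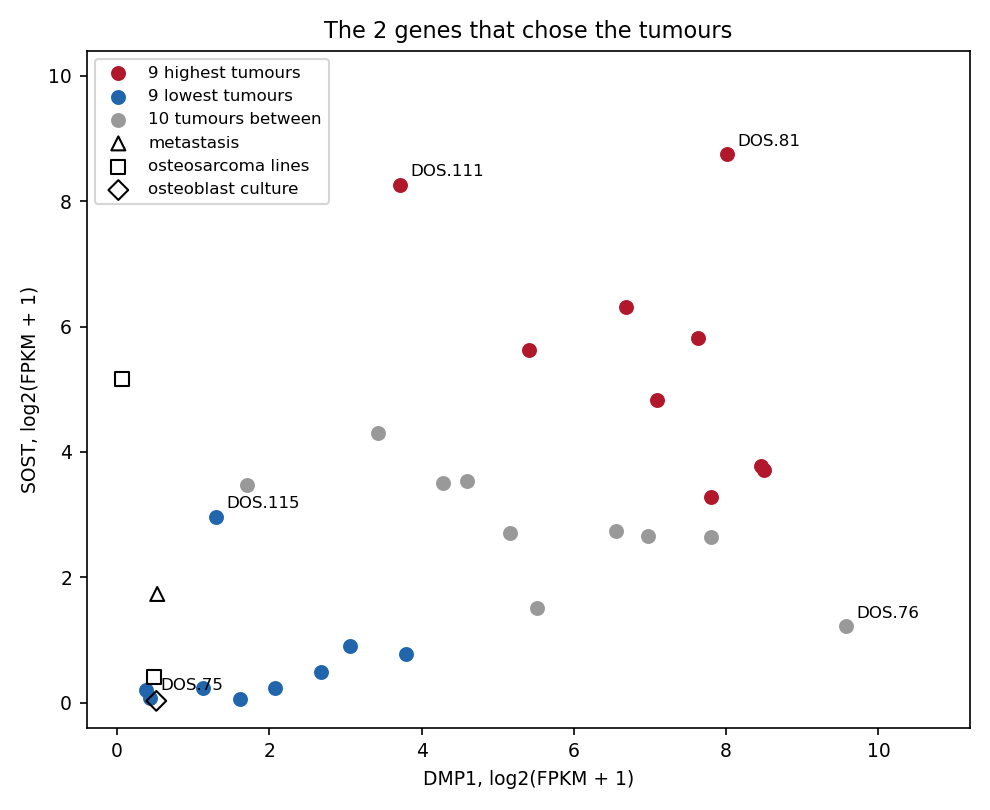
DMP1 (x axis) against SOST (y axis), both as log2(FPKM + 1), in the 28 tumours and the 4 other libraries. The 9 highest tumours (red) span 12.1 to 362 FPKM of DMP1, the 9 lowest (blue) 0.306 to 12.9 FPKM, and DOS.76 and DOS.111 lie far off the diagonal in opposite directions.

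Outside the primary tumours both genes were mostly low. The metastasis DOS.6M held 0.441 FPKM of DMP1 and 2.33 FPKM of SOST, against 9.79 and 18.8 FPKM in the primary tumour DOS.6, which has the same title number. The line OSCA.78 held 34.8 FPKM of SOST beside 0.0447 FPKM of DMP1, and OSCA.8 held 0.336 FPKM of SOST beside 0.398 FPKM of DMP1. The osteoblast culture held 0.0209 FPKM of SOST and 0.429 FPKM of DMP1. The line OSCA.78 was the only one of these 4 libraries whose SOST passed that of every tumour in the lowest set. None of them has a replicate.

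The libraries of the sets did not differ detectably in scale. Summed FPKM averaged 632970 ± 65795 in the 9 highest and 652777 ± 147794 in the 9 lowest tumours (SD, n = 9 each; two-sided exact permutation test, p adjusted over 3 measures = 0.714). The number of genes above 0 averaged 17068 ± 264 in the 9 highest and 16905 ± 317 in the 9 lowest tumours (SD, exact permutation test, adjusted p = 0.714). The 10 most abundant genes took 19.1% ± 6.59 of the sum in the 9 highest and 17.4% ± 11.1 in the 9 lowest tumours (SD, exact permutation test, adjusted p = 0.714). Sequencing depth in reads is unknown. One pair of tumours crosses the sets: the profiles of DOS.110, in the highest set, and DOS.115, in the lowest, correlated at r = 0.67, where the median pair of libraries stood at -0.04. The labels do not say what these 2 tumours share. Results without both are given beside the counts.

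The question put to all other genes was which of them are higher or lower in the tumours with the highest DMP1 and SOST. Of 14910 genes tested, 20 rose (0.134%, limma, Benjamini-Hochberg adjusted p below 0.05) and 0 fell. Without adjustment, 715 genes were higher (4.80%) and 415 lower (2.78%) at limma p below 0.05. The 20 include PHEX, bone sialoprotein IBSP, the bone morphogenetic protein BMP2, the lipid-cleaving enzymes ENPP6 and PLA2G5, and COX6A2, a muscle-type subunit of cytochrome c oxidase. All carry a gene symbol. Their differences on the log2(FPKM + 1) scale run from 0.90 for MOB3C to 3.87 for PHEX, and this scale understates the change of genes near 0. Without DOS.110 and DOS.115, a choice made after seeing the data, 28 genes rose, 19 of the 20 among them, and 0 fell.

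PHEX, a membrane peptidase of osteoblasts and osteocytes whose loss causes phosphate-wasting rickets in humans, stood first. It ran from 4.0 FPKM (DOS.100) through a median of 20.5 to 124 FPKM (DOS.111) in the 9 highest tumours, and from 0.0605 FPKM (DOS.75) through a median of 0.460 to 1.81 FPKM (DOS.115) in the 9 lowest. Every tumour of the highest set lay above every tumour of the lowest set. The rise of PHEX was 3.87 ± 0.47 in log2 units (SE, adjusted p = 0.00109 in limma), and it kept its call in each of 18 refits that left out 1 tumour. Its level followed SOST (r = 0.77 over 28 tumours) and DMP1 (r = 0.69), and in the 10 tumours between the sets it correlated with the score at r = 0.69.

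IBSP, bone sialoprotein, nucleates mineral in bone matrix and is a neighbour of DMP1 in the reference annotation. It ran from 320 FPKM (DOS.110) through a median of 2351 to 5044 FPKM (DOS.46) in the 9 highest tumours, against 48.6 FPKM (DOS.115) through a median of 173 to 917 FPKM (DOS.116) in the 9 lowest. The sets overlap: 7 of the 9 highest tumours lay above all of the lowest set. IBSP rose by 3.30 ± 0.53 (SE, limma adjusted p = 0.0158). DOS.76, the tumour with the most DMP1, held only 164 FPKM of IBSP and 3.95 FPKM of PHEX.

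ENPP6 is a phosphodiesterase that releases phosphocholine from choline lipids, which the bone phosphatase PHOSPHO1 can use. It ran from 0.952 FPKM (DOS.100) through a median of 9.72 to 31.3 FPKM (DOS.81) in the 9 highest tumours and from 0.0187 through a median of 0.250 to 1.70 FPKM in the 9 lowest. The overlap rests on the 2 lowest of the highest set, DOS.100 and DOS.111 (1.18 FPKM). ENPP6 rose by 2.76 ± 0.46 (SE, limma adjusted p = 0.0158). PLA2G5, a secreted phospholipase A2, rose by 2.57 ± 0.44 (SE, limma adjusted p = 0.0158), with a median of 14.9 FPKM in the 9 highest and 0.591 FPKM in the 9 lowest tumours. The lowest value in the highest set was that of DOS.110, at 1.12 FPKM.

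COX6A2, the subunit of cytochrome c oxidase used in heart and skeletal muscle, rose by 2.68 ± 0.42 (SE, limma adjusted p = 0.0158). Among the 9 highest tumours 8 lay between 6.44 and 22.7 FPKM and DOS.100 at 0.600 FPKM, whereas the 9 lowest ran from 0 through a median of 0.730 to 2.80 FPKM. All 10 tested skeletal muscle genes had positive differences, with a median of 0.99, and 0 passed over all genes by limma. Over all genes 47.8% were positive, with a median of -0.01. MYLPF (2.41) and MB (1.67) had an unadjusted limma p below 0.05, against 4.80% of all genes higher. The median FPKM of CKM (0.0860 against 0.157) and TNNT3 (0.469 against 0.863) was lower in the 9 highest than in the 9 lowest tumours, and that of the other members higher. The list's summed level ran from 8.66 to 380 FPKM in the 9 highest and from 3.0 to 33.3 FPKM in the 9 lowest tumours. The part of these genes in the COX6A2 result was not tested.

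**Figure D2:**
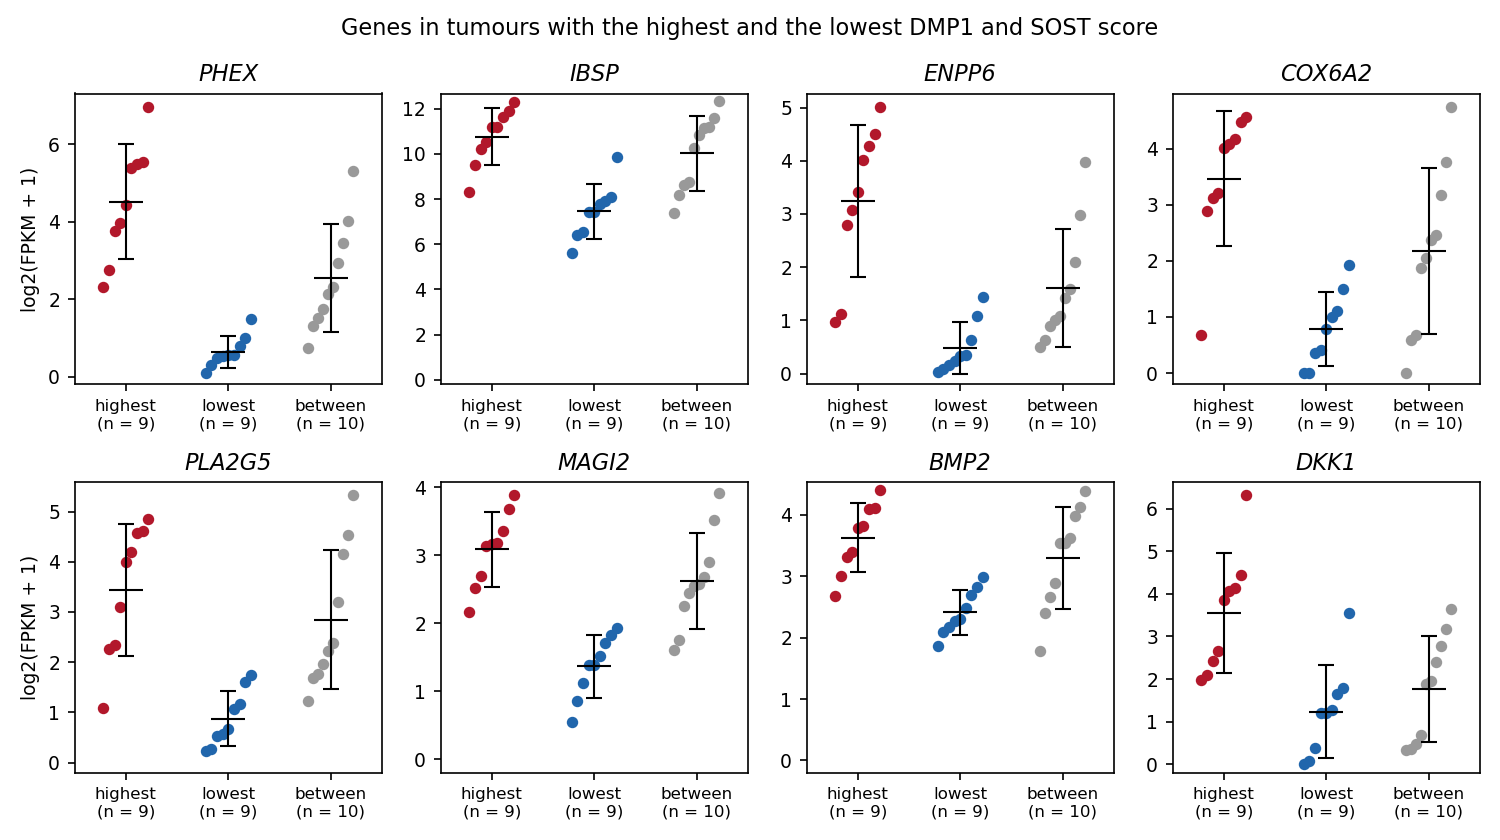
Levels of 8 genes as log2(FPKM + 1) on the y axis, with 1 point per tumour in the highest, the lowest and the between set, and the mean with SD as bars. PHEX and MAGI2 separate the 9 highest from the 9 lowest tumours completely, while in DKK1 the lowest set reaches 10.7 FPKM in DOS.115.

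The scaffold protein MAGI2 rose by 1.72 ± 0.24 (SE, limma adjusted p = 0.00478). Its lowest value in the highest set was 3.47 FPKM, above the 2.81 FPKM that the lowest set reached. BMP2, a growth factor that drives osteoblast formation, rose by 1.21 ± 0.23 (SE, limma adjusted p = 0.0323), with a median of 12.8 FPKM in the 9 highest and 3.95 FPKM in the 9 lowest tumours. PGF, a ligand of the vessel receptor FLT1, rose by 1.58 (limma adjusted p = 0.0159), at a median of 31.1 FPKM in the 9 highest against 11.3 FPKM in the 9 lowest tumours. These 3 differ in overlap: the sets are apart for MAGI2 and PGF, and 8 of the 9 highest tumours exceed the whole lowest set for BMP2.

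CD200, a membrane protein that quiets myeloid cells, rose by 1.40 (limma adjusted p = 0.0219), and its median was 70.7 FPKM in the 9 highest and 22 FPKM in the 9 lowest tumours. SPRY1, an inhibitor of receptor tyrosine kinase signalling, rose by 1.74 (limma adjusted p = 0.0418) and the inhibitory G protein subunit GNAI1 by 1.78 (limma adjusted p = 0.0409). RAPGEF4, an exchange factor that cyclic AMP activates, rose by 1.25 (limma adjusted p = 0.0159), and the calmodulin-regulated kinase DAPK2 by 1.87 (limma adjusted p = 0.0261). WIPF3 of the WASP-interacting proteins rose by 1.64 (limma adjusted p = 0.0158) and the WAVE complex adaptor ABI3 by 1.33 (0.0398). Other rises were those of PROSER2 (2.04), the forkhead factor FOXC2 (1.32), the transcription elongation factor ELL2 (0.96) and MOB3C (0.90). FOXC2, RAPGEF4, BMP2, ELL2 and MOB3C fall outside the 15 largest rises and were named after their values were seen.

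Complete separation was rare. Over all genes tested, 10 (0.0671%) had every tumour of the highest set above every tumour of the lowest set, and 0 had the reverse. Among those 10 are 8 of the called genes, which are PHEX, MAGI2, WIPF3, PGF, ABI3, FOXC2, ELL2 and MOB3C. The other 2, UROC1 and CNKSR2, were not called and were singled out after the count was seen.

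**Figure D3:**
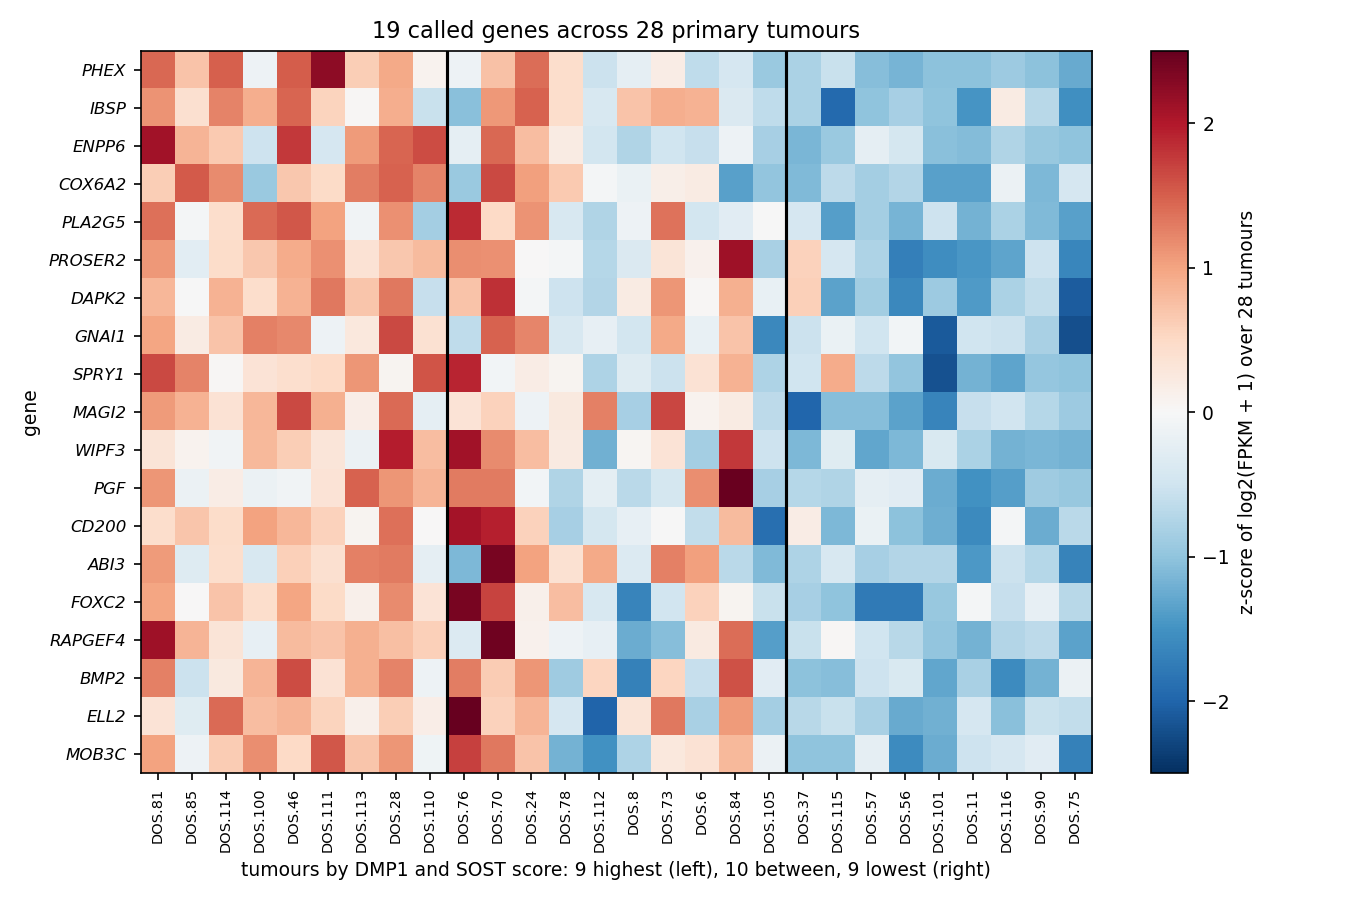
Of the 20 called genes, 19 (rows) in the 28 tumours (columns, from the highest score on the left to the lowest on the right), coloured by the z-score of log2(FPKM + 1) over the 28 tumours. Black lines bound the 9 highest, the 10 between and the 9 lowest tumours, and DOS.76 and DOS.70, just outside the highest set, are high in many of these genes.

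The 10 tumours between the sets took no part in the main comparison. In them, all 20 called genes correlated positively with the score, at a median r of 0.45, against 52.2% of 14882 genes with a median r of 0.02 over all genes. These correlations are given as a description, with no test. In these 10 tumours the score ran with DMP1, while SOST tended the other way. DOS.76, with the highest score of the 10, held 762 FPKM of DMP1 and 1.33 FPKM of SOST. DOS.105, with the lowest, held 2.26 FPKM of DMP1 and 10.1 FPKM of SOST. CD200 (r = 0.78) and FOXC2 (r = 0.71) followed the score most closely there, and IBSP (r = 0.24), PGF (r = 0.24) and MAGI2 (r = 0.25) least closely among the 20.

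The calls differ in how much they rest on single tumours. When 1 of the 18 tumours was left out in turn, 12 of the 20 genes passed every time, and none changed direction. The other 8, among them CD200, DAPK2, BMP2, GNAI1, ABI3, MOB3C and SPRY1, lost the threshold in 4 to 15 of the refits, at adjusted p between 0.0518 and 0.108. Each of the 18 tumours ended at least 1 of these calls. All 8 calls ended without DOS.46 (13 genes rose), without DOS.101 (12 rose) and without DOS.11 (12 rose). The differences themselves moved little, for example between 1.12 and 1.33 for BMP2 and between 1.57 and 1.98 for SPRY1.

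Among the other genes that mark osteocytes, PHEX was the one call out of 13 measured (against 0.134% higher over all genes). The median log2 difference of the 13 was 0.34 and 10 were positive, against a median of -0.01 and 47.8% positive over all genes. MEPE, PDPN, GJA1, ACKR3 and PLS3 of this list could not be looked up by symbol. DKK1, a secreted WNT inhibitor made by osteocytes, differed by 2.31 ± 0.54 (SE, limma adjusted p = 0.142), with a median of 13.4 FPKM in the 9 highest and 1.31 FPKM in the 9 lowest tumours. It passed without DOS.115, the lowest-set tumour with 10.7 FPKM of DKK1 (2.60, limma adjusted p = 0.0328). IRX5 (0.98, limma adjusted p = 0.478) and PTPRZ1 (0.70, 0.611) had positive differences, and WNT1 (0.52, 0.826), DSTN (0.41, 0.778), NT5E (0.34, 0.918), FBLN7 (0.17, 0.977), CD44 (0.13, 0.971), HYOU1 (0.11, 0.970), KERA (-0.05, 0.998) and CAPG (-0.40, 0.860) lay nearer 0. Beyond DMP1 and SOST, which chose the tumours, the osteocyte label therefore rests on PHEX alone among called genes.

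FGF23, the phosphate-lowering hormone of osteocytes, did not follow the sets. It ran from 0.0566 FPKM through a median of 0.845 to 96.7 FPKM (DOS.28) in the 9 highest tumours and from 0 through a median of 0.736 to 190 FPKM (DOS.75) in the 9 lowest. The tumours with much FGF23 were few and stood on both sides, with 149 FPKM in DOS.116 of the lowest set. The difference was -0.46 ± 1.17 (SE, limma adjusted p = 0.971), and its large SE leaves a sizeable change in either direction possible. Leaving out 1 tumour moved it between -1.07 and 0.22.

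Of the bone matrix proteins, 1 of 8 measured members rose, which was IBSP, against 0.134% higher over all genes. Of the 8 differences 7 were positive, with a median of 0.95, against 47.8% positive and a median of -0.01 over all genes. Osteopontin SPP1 had a median of 894 FPKM in the 9 highest and 352 FPKM in the 9 lowest tumours (difference 2.12, limma adjusted p = 0.403), and osteomodulin OMD had 253 FPKM in the 9 highest and 97.2 FPKM in the 9 lowest (1.51, 0.621). The collagen chain COL1A2 had a median of 12718 FPKM in the 9 highest and 5257 FPKM in the 9 lowest (0.79, 0.693). The list's summed level ran from 8587 to 44607 FPKM in the 9 highest and from 7311 to 30242 FPKM in the 9 lowest tumours, so it overlaps widely. With the list's mean, which contains IBSP, as a covariate, PHEX alone of the 20 stayed called (4.08, limma adjusted p = 0.0362), and the other 19 had adjusted p between 0.129 and 0.379. The differences themselves were larger under this covariate for 8 of the 20 and smaller for 12. SPRY1 stood at 2.12 and PGF at 1.79, and the smallest relative to the values without it were CD200 at 0.81 and IBSP at 2.29.

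Mineralisation and phosphate genes gave 0 calls among 14 by limma, with 9 positive differences, a median of 0.78 and 7 members higher at an unadjusted p below 0.05 (against 4.80% of all genes). The phosphatase PHOSPHO1, which frees phosphate inside matrix vesicles, had a median of 14.8 FPKM in the 9 highest and 4.06 FPKM in the 9 lowest tumours (1.61, limma adjusted p = 0.208). The phosphate transporter SLC20A2 (1.35, 0.235), the citrate transporter SLC13A5 (1.56, 0.603), the sphingomyelinase SMPD3 (1.45, 0.645), the pyrophosphate transporter ANKH (1.23, 0.376), the pyrophosphate-forming enzyme ENPP1 (1.0, 0.341) and GALNT3 (0.84, 0.628), which protects FGF23 from cleavage, make up the rest of the 7. FAM20C, the kinase that phosphorylates DMP1, stood near 0 at -0.09 (limma adjusted p = 0.970).

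Transcription factors of osteoblasts gave 0 calls among 17 by limma, with a median of 0.40 and 5 members higher at an unadjusted p below 0.05 (against 4.80% of all genes). DLX3 had a median of 17.5 FPKM in the 9 highest and 4.21 FPKM in the 9 lowest tumours (1.79, limma adjusted p = 0.143), and it passed without DOS.85 (2.0, 0.0492). MEF2C, which acts on the bone enhancer of SOST in mice, had a median of 50.5 FPKM in the 9 highest and 22.6 FPKM in the 9 lowest tumours (1.08, 0.224). HEY1 (1.07, 0.621) and MEF2A (0.67, 0.571) are also among the 5. SP7, a transcription factor of osteoblasts, had medians of 56.9 FPKM in the 9 highest and 52.9 FPKM in the 9 lowest tumours. Its difference was 0.40 ± 0.55 (SE, limma adjusted p = 0.928). RUNX2, MSX2 and TWIST1 of this list could not be looked up by symbol.

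In the WNT pathway, which sclerostin restrains, 0 members of 4 lists passed over all genes by limma. Of the secreted antagonists 4 of 13 were higher at an unadjusted p below 0.05, against 4.80% of all genes: DKK1, WIF1 (2.31, limma adjusted p = 0.583), NOTUM (1.46, 0.645) and SOSTDC1 (1.0, 0.612), the closest relative of SOST. WIF1 had a median of 559 FPKM in the 9 highest against 87.5 FPKM in the 9 lowest tumours, with a wide spread inside both sets (SE 0.95). Of the 13 antagonists 7 were positive, with a median of 0.35, and FRZB (-1.34, limma adjusted p = 0.709) was among the negative ones. The WNT receptors had 10 of 18 positive differences and a median of 0.09, against 47.8% positive and -0.01 over all genes. Among these receptors 4 of 18 were lower at an unadjusted p below 0.05, against 2.78% of all genes. They are FZD2 (-1.12, limma adjusted p = 0.374), FZD1 (-1.19, 0.583), ROR2 (-1.33, 0.536) and FZD9 (-1.02, 0.538). LRP4, which anchors sclerostin in bone, stood at a median of 23.8 FPKM in the 9 highest and 6.82 FPKM in the 9 lowest tumours (1.01, 0.661).

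The genes read as targets of WNT signalling did not all share a direction. Of 15 differences 10 were positive, with a median of 0.36, against 47.8% positive and a median of -0.01 over all genes. Of 15 measured, 4 were higher at an unadjusted p below 0.05, against 4.80% of all genes: BAMBI (1.77, limma adjusted p = 0.0798), LEF1 (0.89, 0.536), and DKK1 and NOTUM, which are antagonists as well. BAMBI passed without DOS.85 (1.92, 0.0363). AXIN2, a widely used readout of the pathway, stood at a median of 4.38 FPKM in the 9 highest and 5.81 FPKM in the 9 lowest tumours (-0.33, 0.899). The 14 WNT ligands and R-spondins had a median of -0.16, with 5 positive. Of the 14, 2 were lower at an unadjusted p below 0.05, against 2.78% of all genes. They are WNT9A (-0.85, limma adjusted p = 0.402) and WNT3 (-0.60, 0.645).

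In the BMP family, BMP2 was the 1 call among 20 genes (against 0.134% higher over all genes), with a median difference of 0.44 (against -0.01). BMP3, an antagonist of bone formation, came next, at a median of 4.96 FPKM in the 9 highest and 0.107 FPKM in the 9 lowest tumours (1.96, limma adjusted p = 0.0798). The BMP inhibitor NOG (0.69, 0.759) and the inhibitory SMADs SMAD6 (0.72, 0.734) and SMAD7 (0.62, 0.763) were positive without passing.

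**Figure D4:**
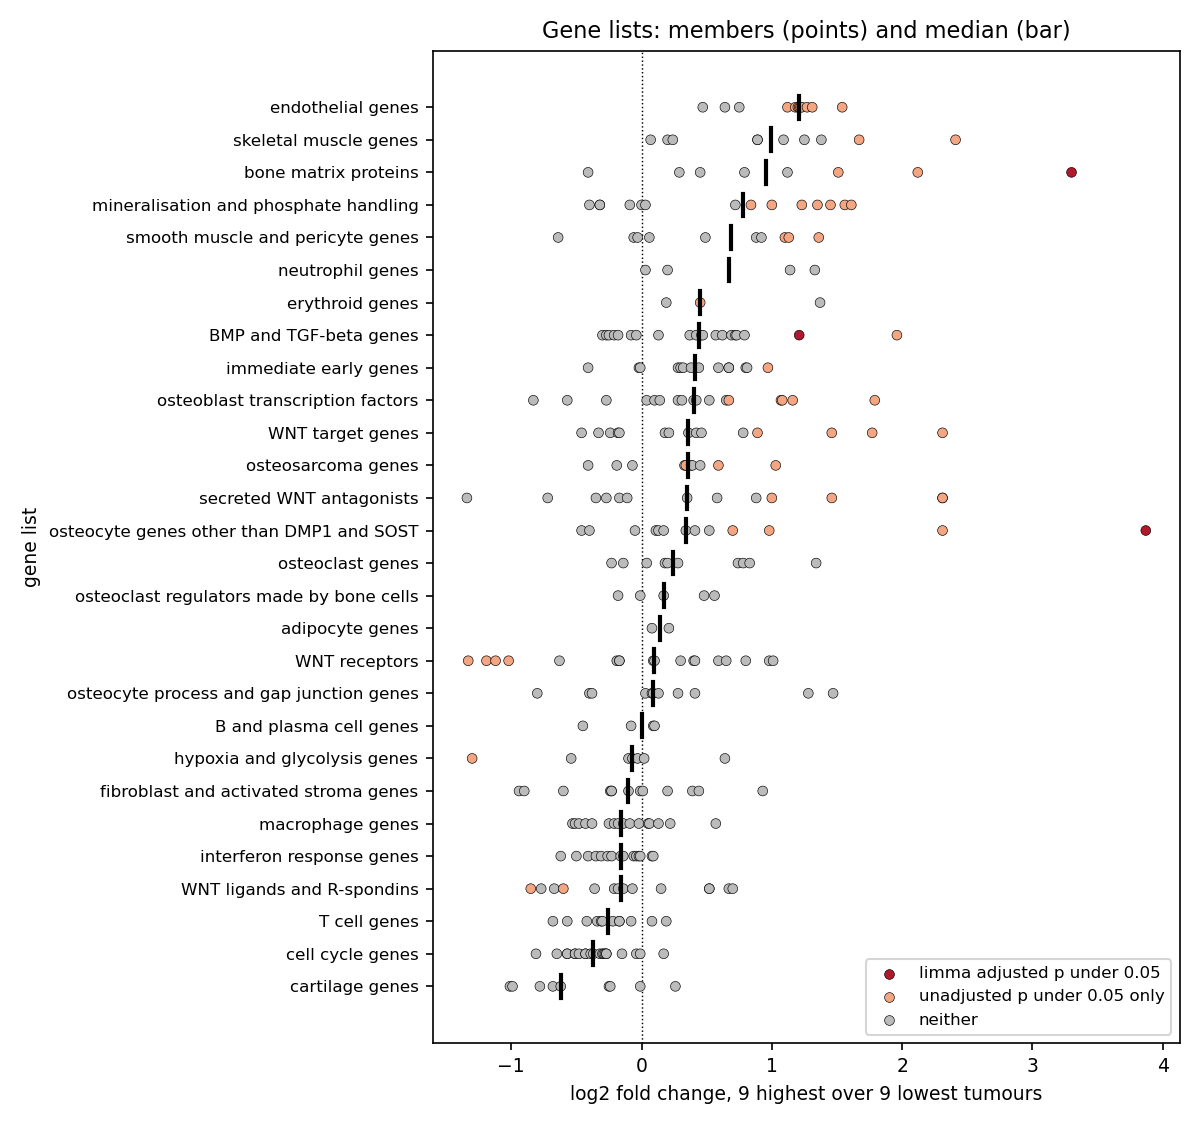
Log2 difference of each measured member (points) of 28 gene lists, 9 highest over 9 lowest tumours, with the median of each list as a bar. PHEX, IBSP and BMP2 are the members that pass over all genes (dark red), and the endothelial list has the highest median, 1.20.

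All 12 endothelial genes measured had positive differences, with a median of 1.20, and 9 were higher at an unadjusted p below 0.05 (against 4.80% of all genes), but 0 passed over all genes by limma. EMCN, a sialomucin of bone capillaries, had a median of 32.2 FPKM in the 9 highest and 8.56 FPKM in the 9 lowest tumours (1.54, limma adjusted p = 0.224), and the receptor FLT1 had 13.8 FPKM in the 9 highest and 6.76 FPKM in the 9 lowest (1.21, 0.341). The summed level of the list ran from 227 through a median of 723 to 2812 FPKM in the 9 highest and from 179 through a median of 347 to 1187 FPKM in the 9 lowest tumours. Over the 28 tumours the 20 called genes correlated with the mean of this list at a median r of 0.35, from 0.11 for WIPF3 to 0.63 for ENPP6. The median over all genes was -0.01. With the mean of the bone matrix list, which contains IBSP, the median r of the 20 was higher, at 0.53 (-0.02 over all genes). With the mean of the endothelial list as a covariate, chosen after seeing the data, 6 of the 20 stayed called, among them PHEX (3.44), IBSP (3.87), MAGI2 (1.83) and CD200 (1.69). The differences were larger under it for 9 of the 20 and smaller for 11, with SPRY1 at 0.96, and the 14 that lost their call had limma adjusted p between 0.0716 and 0.323. In bulk tissue, more cells of a type and more RNA per cell cannot be told apart.

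Pericyte and smooth muscle genes showed a median of 0.69, with 7 of 10 positive and 0 of 10 called (0.134% called higher over all genes). At an unadjusted limma p below 0.05, 3 of 10 were higher, against 4.80% of all genes. They are RGS5, with the smallest p (1.36, limma adjusted p = 0.441), ABCC9 (1.13, 0.583) and MCAM (1.10, 0.633). Macrophage genes (0 of 16 called, median -0.16), T cell genes (0 of 12, -0.26), B and plasma cell genes (0 of 4, 0.01) and interferon genes (0 of 15, -0.16) stood beside a median of -0.01 over all genes. By sign, 5 of 16 macrophage, 2 of 12 T cell, 2 of 4 B and plasma cell and 2 of 15 interferon genes were positive, against 47.8% of all genes. The genes nearest the threshold in these lists were CD163 at -0.53 (limma adjusted p = 0.871), GZMA at -0.57 (0.844), CD22 at -0.45 (0.872) and CMPK2 at -0.50 (0.733). The summed macrophage level ran from 156 to 1815 FPKM in the 9 highest and from 205 to 2020 FPKM in the 9 lowest tumours.

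Over all genes 0.134% were called higher and 0 lower by limma, with a median difference of -0.01. At these shares, lists of up to 14 genes mostly hold 0 calls, so the 0 calls below say little. Osteoclast genes (0 of 10 called, median 0.24) and the osteoclast regulators of bone cells (0 of 5, 0.17) were spread widely. ATP6V0D2, a proton pump subunit of osteoclasts, stood at 1.34 ± 0.96 (SE, limma adjusted p = 0.818) and CSF1 at 0.56 (0.820). Neutrophil (0 of 4, 0.67), erythroid (0 of 3, 0.45) and adipocyte genes (0 of 2, 0.14) are short lists, in which the smallest p belonged to S100A9 (1.14, 0.787), EPB42 (0.45, 0.621) and PLIN1 (0.21, 0.924). Immediate early genes had a median of 0.41 with 0 of 14 called, EGR3 (0.97, 0.401) having the smallest p, and genes of osteocyte processes and gap junctions a median of 0.09 with 0 of 11 called, CTGF (1.28, 0.653) having the smallest p. Of the osteosarcoma genes 0 of 10 were called, with 7 positive differences and a median of 0.36. At an unadjusted limma p below 0.05, 3 of 10 were higher, against 4.80% of all genes. They are GRM4 (1.03, limma adjusted p = 0.478), which had the smallest p, RB1 (0.59, 0.645) and ATRX (0.34, 0.642).

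With 0 genes that fell by limma, the lists below are described by sign and by unadjusted p. Over all genes 47.8% of differences were positive, with a median of -0.01. By limma 0.134% of all genes were called higher and 0 lower, and 2.78% were lower at an unadjusted p below 0.05. Cell cycle genes were negative in 20 of 21 cases, with a median of -0.37. They held 0 calls by limma and 0 members at an unadjusted p below 0.05. CDC20, an activator of mitotic exit, came nearest, at a median of 14.2 FPKM in the 9 highest and 21.6 FPKM in the 9 lowest tumours (-0.57, limma adjusted p = 0.653). Cartilage genes were negative in 8 of 9, with a median of -0.62 and wide errors (SOX6 at -0.62, 0.763). Fibroblast and activated stroma genes had a median of -0.10 with 0 of 13 called, TNC having the smallest p (0.93, 0.808). Hypoxia genes completed the lists, with a median of -0.07, 0 of 7 called and NDUFA4L2 at -1.30 (0.627). NDUFA4L2 was the 1 of 7 lower at an unadjusted p below 0.05, against 2.78% of all genes.

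The single genes nearest to a fall were MFSD2A, the lysophosphatidylcholine transporter, and EVA1A. MFSD2A ran from 1.23 through a median of 3.73 to 7.63 FPKM in the 9 highest tumours and from 6.98 through a median of 9.79 to 15.4 FPKM in the 9 lowest. The sets barely overlap, and the difference was -1.21 ± 0.25 (SE, limma adjusted p = 0.0521, between 0.0334 and 0.127 with 1 tumour left out). It passed without DOS.46 (0.0334) or without DOS.28 (0.0424). MFSD2A followed SOST (r = -0.70 over 28 tumours) more than DMP1 (r = -0.22). In the 10 tumours between the sets its r with the score was 0.23, opposite in sign. With tumours ranked by DMP1 alone MFSD2A differed by -0.52 (limma adjusted p = 0.616), and by SOST alone by -1.29 (0.0606). EVA1A differed by -1.45 (limma adjusted p = 0.0905) and the neuronal receptor LINGO1 by -1.48 (0.149). Also among the 10 with the smallest p were B4GALNT4 (-1.34, 0.160), the collagen galactosyltransferase COLGALT1 (-0.81, 0.167), SMIM1 (-0.97, 0.180), the growth factor HDGF (-0.69, 0.194), RHOBTB3 (-0.86, 0.224) and NFATC2 (-0.99, 0.227).

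DMP1 and SOST each had their own nearest genes over the 28 tumours, given here as a description. The 5 genes most like DMP1 were PTPN4 (r = 0.83), CD200 (0.81), AK5 (0.79), PLA2G5 (0.77) and ENPP1 (0.76), and their correlation with SOST lay between 0.21 and 0.48. The 5 most like SOST were DKK1 (r = 0.78), THSD1 (0.77), PHEX (0.77), FILIP1L (0.76) and AFAP1L2 (0.74). Of these, PHEX was the one with a similar correlation to DMP1 (0.69), and FILIP1L had 0.15 with it. Both lists were picked as the extremes of 11667 genes with a symbol, so the coefficients are biased upward.

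**Figure D5:**
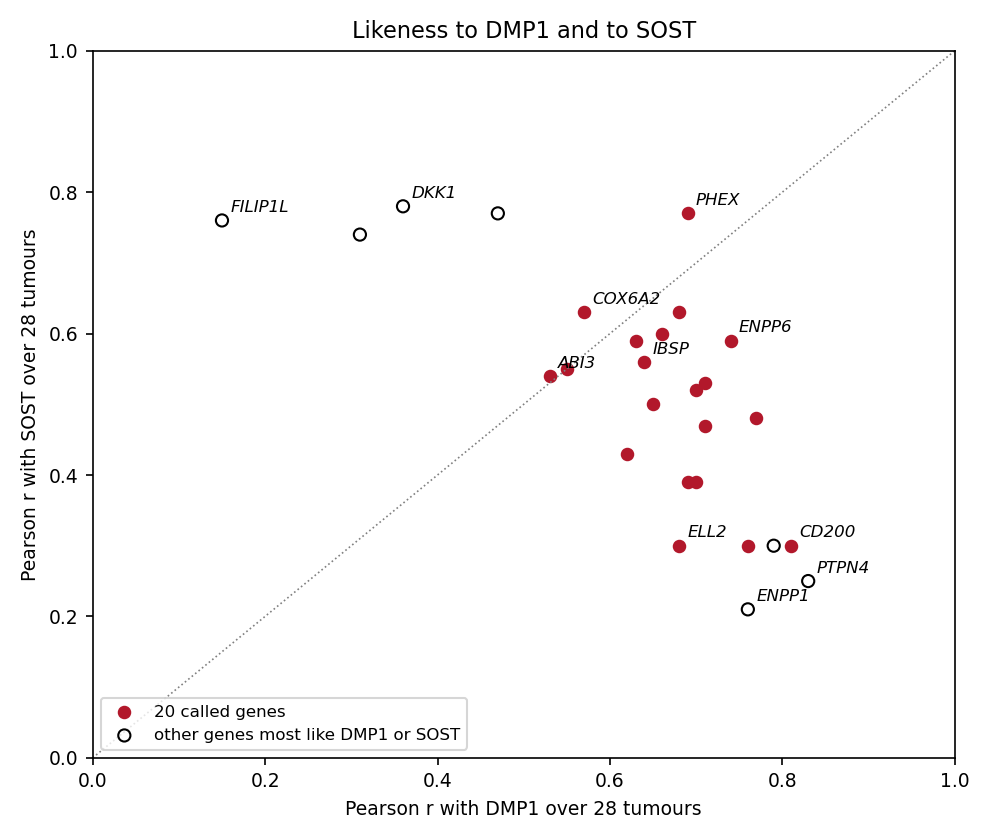
Pearson r with DMP1 (x axis) and with SOST (y axis) over 28 tumours, for the 20 called genes (red) and the other genes most like either one (open circles). PHEX lies high on both axes, at 0.69 and 0.77, while DKK1 (0.36 and 0.78) and PTPN4 (0.83 and 0.25) lie near 1 axis each.

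Ranking the tumours by 1 gene alone gave different calls. By DMP1 alone 39 genes rose and 6 fell, and by SOST alone 7 rose and 0 fell, with 18 and 5 of the 20 among those that rose (limma, adjusted p below 0.05). PHEX differed by 3.50 under DMP1 and by 3.43 under SOST, and IBSP by 3.33 and 3.10, all 4 called. WIPF3 differed by 1.94 under DMP1 (limma adjusted p = 0.00593) and by 0.99 under SOST (0.490), and CD200 by 2.04 (0.00195) and 0.81 (0.591). DKK1 differed by 1.55 under DMP1 (0.251) and by 2.71 under SOST (0.0272). The difference between the rankings was not tested, since they share most tumours.

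DMP1 lies in a cluster of mineralised tissue genes, and its neighbours could be read from the gene order of another dog assembly. Within 4 protein-coding genes on each side, IBSP rose, SPP1 (2.12, limma adjusted p = 0.403) and SPARCL1 (1.34, 0.571) were positive without passing, and PKD2 (-0.30, 0.840) and NUDT9 (0.21, 0.896) lay near 0. MEPE, DSPP and HSD17B11 could not be looked up by symbol. Next to SOST, DUSP3 (0.16, 0.911), MEOX1 (-0.08, 0.995), CD300LG (0.42, 0.841), MPP3 (-0.22, 0.867) and DHX8 (-0.17, 0.890) did not pass. MEOX1, the nearest gene on one side of SOST, correlated with it at r = 0.29, and DUSP3 on the other side at 0.15.

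Outside the primary tumours the leading genes can be given as single values only. PHEX stood at 2.01 FPKM in the metastasis DOS.6M, against 1.48 FPKM in DOS.6, and at 0.175 FPKM in OSCA.8, 0.118 FPKM in OSCA.78 and 0.0753 FPKM in the osteoblast culture. IBSP stood at 783 FPKM in DOS.6M, against 2255 FPKM in DOS.6, and at 1.96 FPKM in OSCA.8, 0.717 FPKM in OSCA.78 and 6.95 FPKM in the culture. Both lines and the culture thus lay below every primary tumour in IBSP, and the metastasis did not. DKK1 ran the other way in the culture, at 82.4 FPKM, above the 78.3 FPKM of DOS.111, the highest of the 9 highest tumours. These libraries have no replicate and were not tested.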

How the data were processed

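Libraries were made from total RNA of bone tumour tissue with the TruSeq RNA v2 kit, per the labels. The authors deposited 1 table of 23988 rows, and its header states no unit. Its values were taken to be FPKM deposited by the authors, because Cufflinks 2.2.1 is named, with FastQC 0.11.2, TopHat2 2.0.13 and canFam3, in the submitters' processing notes. For the annotation, filters and any scaling between libraries, the method is not given in the sources used. Of the rows, 9653 carry an Ensembl identifier only and enter no list. Read depth is unknown, so no counting interval was computed. The labels do not say that each tumour came from its own dog, and the p-values measure only the spread between these samples, part of which may be technical.

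Values were transformed to log2(FPKM + 1), and 2 pairs of libraries were averaged. A row was kept where 2 or more of the 28 tumours reached 1 FPKM (14910 rows without DMP1 and SOST). FPKM given for an averaged tumour is back-transformed from its log2 mean. The 18 tumours were fitted in limma 3.58.1 under R 4.3.3 (lmFit, then a robust eBayes with a trend, two-sided). Benjamini-Hochberg adjustment covered all rows, at a threshold of 0.05. Sums, detected genes and top shares were tested by exact permutation (scipy 1.17.1, Python 3.11.15). The fit was tested on simulated data with known changes. The members, lists and tests were chosen with earlier results of these data known. Named genes are the 15 largest rises, the 10 smallest p among falls where fewer than 5 passed, up to 3 called members of each of 28 lists or else the member with the smallest p, all measured osteocyte genes, and the 5 most like DMP1 and SOST. Neighbours, the other called genes and further list members were added after the values were seen. Neighbours come from a RefSeq table of another assembly (UU_Cfam_GSD_1.0), so no coordinates are printed. Alternatives changed the pseudocount, the filter, the scaling, the size of the sets, the ranking gene, the averaging and the covariates, and left out each tumour in turn. Some single genes that the naming rule picks are not reported here.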

Additional observations from a re-analysis of the deposited data

Results flagged for a closer look

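Within each set of 9 tumours, a gene was singled out when its extreme tumour stood apart from the others by more than Dixon's critical value on the log2 scale, which chance does in about 1 in 20 groups. This held in 17 of 164 groups, with DMP1 and SOST left out because they chose the sets.

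In the lowest set, DOS.115 stood above the others in DKK1 (10.7 FPKM, the others at most 2.45), EGR3 (4.54, at most 1.5), CD300LG (8.56, at most 1.19) and MEOX1 (28.4, at most 4.88). DOS.110, the highest-set tumour whose profile correlates with that of DOS.115, stood above its set in PLIN1 (4.59 FPKM, the others at most 0.682), CMPK2 (4.62, at most 0.938) and CD300LG (6.11, at most 2.2). CD300LG thus set both tumours apart, in opposite sets.

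Also in the highest set, DOS.100 lay low in COX6A2 (0.600 FPKM, the others at least 6.44), DOS.111 low in SMIM1 (3.40, at least 7.58) and DOS.85 low in HDGF (57.2, at least 90.5). DOS.28 lay high in WIPF3 (12.7 FPKM, the others at most 4.59), and DOS.81 high in RAPGEF4 (20.9, at most 9.74) and in PTPRZ1 (7.54, at most 2.14). In the lowest set, DOS.37 lay high in FBLN7 (249 FPKM, the others at most 42.5) and in AK5 (5.23, at most 1.40), DOS.57 high in S100A9 (14.4, at most 3.24) and DOS.116 high in WNT1 (5.31, at most 0.402).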

How the results depend on the processing

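The 20 genes that rose became 13 with 7 against 7 tumours, 6 with 14 against 14, 59 with the score as a continuous term over all 28, 39 and 7 with ranking by DMP1 or SOST alone, 4 with the tumours between fitted as a group of their own, 1 with the bone matrix list and 12 with the endothelial list as a covariate, and from 12 to 28 with 1 tumour left out. The 0 that fell became 1 with the filter on the mean, with upper quartile scaling and with quantile normalisation (MFSD2A each time), 1 with 7 against 7, 7 with the continuous score, 6 with DMP1 alone, 2 with DOS.100 and DOS.32 kept apart, 1 and 2 with the bone matrix and the endothelial covariate, and from 0 to 1 with 1 tumour left out. The cause of these moves was not tested. A pseudocount of 0.1 FPKM (23 rose), no filter (16), the mean filter (21), upper quartile scaling (21), quantile normalisation (18), separate DOS.100 and DOS.32 (24) and the sets without DOS.110 and DOS.115 (28) stayed within 1.5 times. No call of a named gene changed sign under any of these settings. The counts are totals over all genes tested. Of the 20 themselves, 9 stayed called with 7 against 7 and 4 with 14 against 14. The continuous score kept 19, and the fit with the tumours between as a group kept 4. No filter kept 15, while quantile normalisation and separate DOS.100 and DOS.32 kept 17 each. The pseudocount, the mean filter and upper quartile scaling kept all 20. The difference in summed FPKM, highest minus lowest, was -19807 and became 22848 with 14 against 14 (permutation test, adjusted p = 0.560). The endothelial covariate and the removal of DOS.110 with DOS.115 were added after seeing the data. No paired analysis was possible because the tumours carry no number that pairs the sets. Unknown read depth limits the low genes, where 1 FPKM was added.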
